A study of Mus musculus with 33 samples.

Results

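Lungs of mice exposed to carbon black were compared late and early after a single dose, on 5 arrays of day 28 against 6 arrays of day 1. The 11 arrays were taken from the 33 of the study by the treatment and day in the sample labels, and all 611 mouse miRNAs on the array were considered. The mice were female, non-pregnant C57BL/6, a common inbred laboratory strain, and no label states their age. Each had received 0.162 mg of Printex 90, a carbon black of nanosized particles, instilled into the trachea. Vehicle mice received 0.9% NaCl with 10% acellular bronchoalveolar lavage fluid, the medium in which the particles were also given, so both treatments share the instillation and the lavage fluid. Exposed lungs of day 3 (4 arrays) and vehicle lungs of days 1, 3 and 28 (6 arrays each) entered the same fit and served for comparison. Each array held RNA of 1 whole lung sample, and each array was counted as 1 mouse.

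miRNAs are short RNAs that guide silencing proteins to messenger RNAs, mostly by pairing of the seed, the bases 2 to 8 from the 5′ end. In lung, particles that settle in the airways draw neutrophils and later macrophages, and both cell types carry characteristic miRNAs such as miR-223 and miR-142. Inflammatory signalling through NF-kB induces miR-146 and miR-155, and miR-146 in turn dampens that signalling. Because many miRNAs are transcribed together as clusters, neighbours often have similar levels.

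The following mature sequences belong to the miRNAs on which the description turns, with the seed in capitals. They were taken from RefSeq with GRCm38.p6 positions, and 47 of 51 array names looked up were matched. The first set shows miRNAs with the smallest unadjusted p among those lower at day 28, no 2 with the same seed; miR-19a and miR-20a, which rank among them, stand with their paralogs in the next set.
miR-223: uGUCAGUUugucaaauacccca
miR-542-5p: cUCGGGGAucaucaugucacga
miR-542-3p: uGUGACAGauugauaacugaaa
miR-335-5p: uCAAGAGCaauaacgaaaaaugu
miR-676: cCGUCCUGagguuguugagcu
miR-140*: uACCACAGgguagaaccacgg
miR-27a: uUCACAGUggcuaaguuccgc
miR-126-3p: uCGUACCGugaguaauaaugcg

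The next set holds paralogs of the miR-17-92 cluster, shown because the seed AAAGUGC is common to 4 of them, GUGCAAA to 2 and AUUGCAC to 2.
miR-20a: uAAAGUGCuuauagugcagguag
miR-20b: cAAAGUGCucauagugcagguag
miR-93: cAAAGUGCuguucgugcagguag
miR-106b: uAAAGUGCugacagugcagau
miR-19a: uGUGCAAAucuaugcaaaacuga
miR-19b: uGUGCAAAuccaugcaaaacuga
miR-25: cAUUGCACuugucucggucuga
miR-92a: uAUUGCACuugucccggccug

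The last set holds 2 seed families whose members all stood higher at day 28, the miR-146 pair and the miR-29 family.
miR-146a: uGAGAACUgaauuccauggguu
miR-146b: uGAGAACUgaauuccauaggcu
miR-29a: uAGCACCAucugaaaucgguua
miR-29b: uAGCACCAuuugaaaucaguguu
miR-29c: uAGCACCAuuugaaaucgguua

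Mature miR-223 lies at chrX:96242884-96242905 on the plus strand, within the long non-coding gene F630028O10Rik. Mature miR-542-5p and miR-542-3p are the arms of 1 hairpin, at chrX:53049453-53049474 and chrX:53049415-53049436 on the minus strand. Mature miR-335-5p (chr6:30741314-30741336, plus strand) lies within the protein-coding gene Mest, and miR-676 (chrX:100381151-100381171, plus strand) within Eda. Mature miR-20a is encoded at chr14:115044183-115044205 on the plus strand, and miR-25 at chr5:138165332-138165353 on the minus strand within Mcm7. Mature miR-146a lies at chr11:43374435-43374456 on the minus strand, outside any annotated host gene, and miR-146b at chr19:46342790-46342811 on the plus strand within the long non-coding gene Gm36493.

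Between 129 and 175 mouse miRNAs were above background on the day 1 arrays (median 162.5), and between 126 and 193 on the day 28 arrays (median 138). The mean number was 5.83 lower at day 28, which did not exceed the spread between arrays (two-sided exact permutation p = 0.677, adjusted p = 0.734 over 2 comparisons). Before scaling, the 75th percentile of the processed signal was 545 to 791 units at day 1 and 448 to 1095 at day 28. Its geometric mean was 1.06-fold lower at day 28 (exact p = 0.734, adjusted p = 0.734; the smallest p that 5 against 6 arrays allow is 0.00216). The number of arrays limits the precision of every value. All exposed arrays of day 1 lay in the third column of their slides and all of day 28 in the fourth, so day and position on the slide cannot be told apart. Slides 2, 5 and 8 held 1 array of each day, and scan days 2 to 5 held arrays of both. Replicate 3 of day 1 was the only array of the comparison on slide 1 and on scan day 1.

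**Figure D1:**
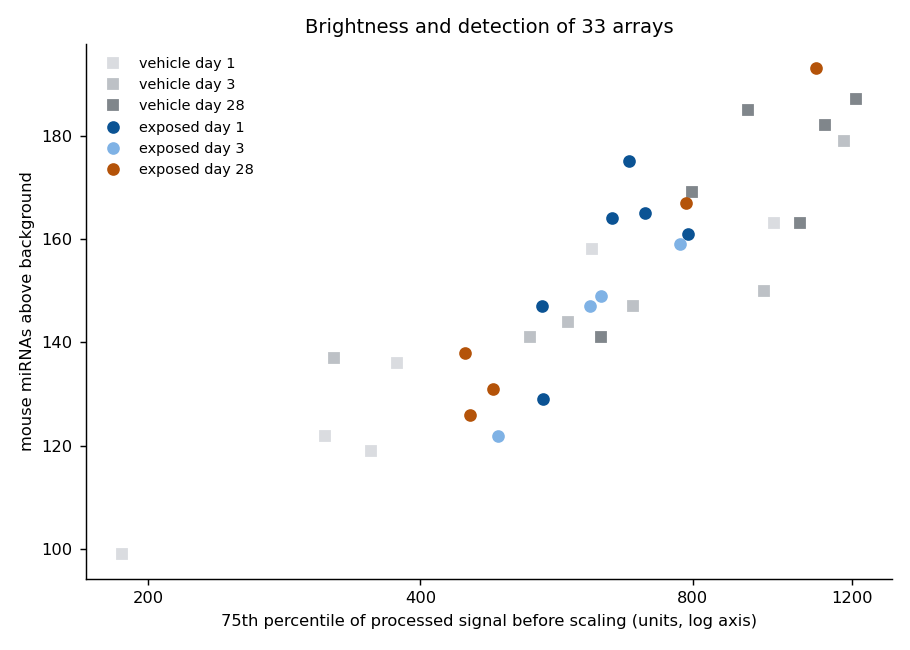
Number of mouse miRNAs above background (vertical axis) against the 75th percentile of the processed signal before scaling (horizontal log axis, units) for all 33 arrays, coloured by treatment and day. Exposed arrays of day 28 spread from 448 to 1095 units and from 126 to 193 miRNAs, which encloses the exposed arrays of day 1.

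Markers of lung were measured in both groups: the endothelial miR-126-3p and the epithelial miR-200c were above background on all 11 arrays, and none of the 5 listed brain miRNAs was tested. The listed liver miRNA, miR-122, was tested and was above background on some arrays of both days. Its level ranged from 2.10 to 6.39 at day 1 and from 2.53 to 7.18 at day 28, with a difference of -0.19. Its source was not tested. Of the 611 mouse miRNAs, 118 were above background on all 11 arrays and 403 on none. No miRNA was above background on all arrays of 1 day and on none of the other. A miRNA was tested when it was above background on at least 4 arrays of any of the 6 groups, which 171 mouse miRNAs met. Of these, 130 met it in both exposed groups, 27 in day 1 but not day 28, 0 in day 28 but not day 1, and 14 in other groups alone. The rule asks for 4 of 6 exposed arrays at day 1 but 4 of 5 at day 28, so it is easier to meet at day 1. The 440 others have no test. The fit also held 1 probe set of another species, so 172 miRNAs were tested in all.

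No miRNA changed between day 1 and day 28 at an adjusted p under 0.05 (limma, 0 of 172, 0%), and the smallest adjusted p was 0.0847. At an unadjusted p under 0.05, 25 miRNAs were lower at day 28 (14.5% of those tested) and 2 were higher (1.16%). Log2 differences ran from -1.93 to 0.67 with a median standard error of 0.175, and 127 of the 172 were negative (73.8%). The median difference was -0.13. This lean depended on how arrays were scaled and corrected: the median was -0.01 with normexp background correction and -0.22 without scaling. The counts at an unadjusted p under 0.05 were then 5 lower and 3 higher, and 5 lower and 0 higher. With the authors' deposited series table they were 5 lower and 7 higher, with the total gene signal 8 and 4, with quantile normalization 10 and 4, and with the percentile over all probes 7 and 2. Differences below are therefore also read against the median of -0.13. For 147 of the 172 the 95% interval lay within a 2-fold change in either direction, and for 93 within 1.5-fold.

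With the arrays of a slide treated as correlated (a random block, correlation 0.356), limma called 9 miRNAs lower (5.23%) and 0 higher at an adjusted p under 0.05. These were miR-1, miR-140*, miR-19a, miR-20a, miR-223, miR-27a, miR-335-5p, miR-542-5p and miR-676. With scan day as a fixed block it called 5 lower (2.91%) and 0 higher: miR-126-3p, miR-223, miR-335-5p, miR-542-5p and miR-676. With slide as a fixed block it called 0, with 26 lower and 4 higher at an unadjusted p under 0.05 and a smallest adjusted p of 0.0555. Without replicate 3 of day 1 it called 2, miR-223 and miR-335-5p, both lower. In 4 miRNAs every day 28 array lay below every day 1 array (2.33% of those tested): miR-542-5p, miR-20a, miR-25 and miR-15a. In 0 miRNAs (0%) did every day 28 array lie above. Within each of slides 2, 5 and 8, 44 miRNAs were lower at day 28 on all 3 slides (25.6%) and 17 were higher on all 3 (9.88%).

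miR-223, a miRNA of neutrophils and other myeloid cells, had the smallest p. Its level, the log2 of the scaled signal, was lowest at 8.07, median 9.17 and highest 9.76 on the day 1 arrays. On the day 28 arrays it was 8.33, 7.99, 8.56, 8.39 and 7.78 (replicates 8, 12, 20, 23 and 30). The day 1 arrays other than replicate 3 stood at 9.01 or above, higher than every day 28 array, and replicate 3 at 8.07 was among the day 28 values. The fitted difference was -0.87 ± 0.22 (SE), a 1.83-fold lower level at day 28 (limma adjusted p = 0.0847), or -0.74 against the median of all tested. Within slides 2, 5 and 8 it was -1.44, -0.63 and -1.37. Without replicate 3 of day 1 it was -1.07 (limma adjusted p = 0.0014), and with the authors' deposited series table -0.50 (adjusted p = 0.312). Leaving out replicate 7, 15, 19 or 26 of day 1 instead gave limma adjusted p-values of 0.134, 0.1265, 0.103 and 0.138. Of 29 alternative settings, 6 had an adjusted p under 0.05 for miR-223. The 29 included both scan day blocks and the fit without slide 1, chosen after seeing the data. Slide 1 held replicate 3 of day 1, so that fit also leaves out replicate 3.

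Mean miR-223 in exposed lungs was 9.08 ± 0.56 (SD, n = 6) at day 1, 8.41 ± 0.12 (n = 4) at day 3 and 8.21 ± 0.32 (n = 5) at day 28. In vehicle lungs it was 8.26 ± 0.27 (n = 6) at day 1 and 8.09 ± 0.38 (n = 6) at day 28. The exposed mean of day 28 lay between these vehicle means. Both arms of miR-142, listed with miR-223 as miRNAs of neutrophils and other leukocytes, had differences smaller than their SE. miR-142-3p was higher by 0.06 ± 0.32 (SE) and miR-142-5p by 0.06 ± 0.22, and both signs turned with slide as a fixed block (-0.15 and -0.01). Without replicate 3 of day 1, miR-142-3p was -0.13. The summed signal of miR-223 and both arms of miR-142 was 866 to 2298 at day 1 (median 1776) and 995 to 2094 at day 28 (median 1716), and its part in the miR-223 difference was not tested. In whole lung, fewer cells of a type and less RNA per cell cannot be told apart.

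miR-542-5p, from the X-linked cluster that also encodes miR-322 and miR-503, separated the days without overlap. It ranged from 3.55 to 3.98 at day 1 (median 3.82) and was 2.89, 2.71, 2.44, 3.20 and 3.26 at day 28. These levels are close to background: the miRNA was above it on 4 of 6 arrays at day 1 and on 2 of 5 at day 28. The difference was -0.90 ± 0.25 (SE; limma adjusted p = 0.0898), and -0.07 with normexp correction. In vehicle lungs the same difference was -1.03 and passed the test (limma adjusted p = 0.0121), so a lower scaled level was measured with and without particles. Detection in vehicle lungs went the other way, from 3 of 6 arrays at day 1 to 5 of 6 at day 28. Vehicle arrays of day 1 were also dimmer before scaling, with a median 75th percentile of 365 units against 985 at day 28. The part of brightness in the vehicle difference was not tested. The arm miR-542-3p ranged from 3.55 to 4.35 at day 1 and from 3.16 to 3.72 at day 28, with all but the lowest day 1 array above every day 28 array, and differed by -0.66 ± 0.23. It was above background on 6 of 6 arrays at day 1 and on 2 of 5 at day 28. Its smallest difference among the alternative settings was -0.07. All 4 tested members of the 7 listed in the cluster were negative (median -0.51, or -0.38 against all tested), 2 of them at an unadjusted p under 0.05. The median in vehicle lungs was -0.47.

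miR-335-5p, which lies within the imprinted gene Mest, ranged from 3.096 to 4.44 at day 1 (median 3.88). At day 28 it was 3.58, 2.81, 2.09, 2.58 and 3.45. Replicates 12, 20 and 23 of day 28 lay below all day 1 arrays, and the groups overlapped in the rest. The difference was -0.96 ± 0.28 (SE; limma adjusted p = 0.0924), against -0.11 in vehicle lungs. Detection was low, on 5 of 6 arrays at day 1 and 2 of 5 at day 28, and the difference was -0.07 with normexp correction. Without replicate 3 of day 1 it was -1.12 (limma adjusted p = 0.0325). Leaving out replicate 7, 15, 19 or 26 of day 1 instead gave limma adjusted p-values of 0.134, 0.1265, 0.180 and 0.138. Of 28 alternative settings, 5 had an adjusted p under 0.05 for miR-335-5p. The 28 included the same settings chosen after seeing the data. miR-676, from the Eda gene, was 3.31 to 3.80 at day 1 and 2.27 to 3.34 at day 28, differed by -0.56 ± 0.18 and was above background on 3 of 6 and 1 of 5 arrays.

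The remaining named miRNAs with lower levels at day 28, miR-181c apart, had small differences between well measured levels. The star arm of miR-140, a miRNA best known from cartilage, ranged from 6.40 to 6.66 at day 1 and from 5.89 to 6.44 at day 28 (-0.32 ± 0.11). miR-126-3p, the most abundant endothelial miRNA, ranged from 12.43 to 12.71 and from 12.03 to 12.58 (-0.27 ± 0.10). Its partner arm miR-126-5p differed by 0.48 ± 0.65, with replicate 3 of day 1 at 1.52 and the other 10 arrays between 3.38 and 4.52. miR-27a, a regulator of lipid metabolism, ranged from 10.29 to 10.49 at day 1 and from 10.10 to 10.33 at day 28, so the groups met only at their edges. miR-30a and miR-181c differed by -0.21 ± 0.08 and -0.44 ± 0.16. Levels of miR-181c were low, at 4.24 to 4.74 at day 1 and 3.74 to 4.49 at day 28. It was above background on 6 of 6 and 4 of 5 arrays, and the smallest difference among the alternative settings was -0.07. Limma adjusted p-values over the 12 lower miRNAs ran from 0.0847 to 0.155. All 12 were lower on each of the 3 shared slides, in the same arrays by which they had been chosen, against 25.6% of all tested. They were also lower on each of the 4 shared scan days, which hold the arrays of those slides again. No share over all tested was computed for scan days. In 11 of the 12 the mean of exposed lungs at day 3 lay nearer to day 1 than to day 28, and miR-223 was the exception. These 12 were chosen for their difference between day 28 and day 1, and that choice itself favours such a count. It was also 11 of 12 for the miRNAs named as higher, and no share over all tested was computed.

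**Figure D2:**
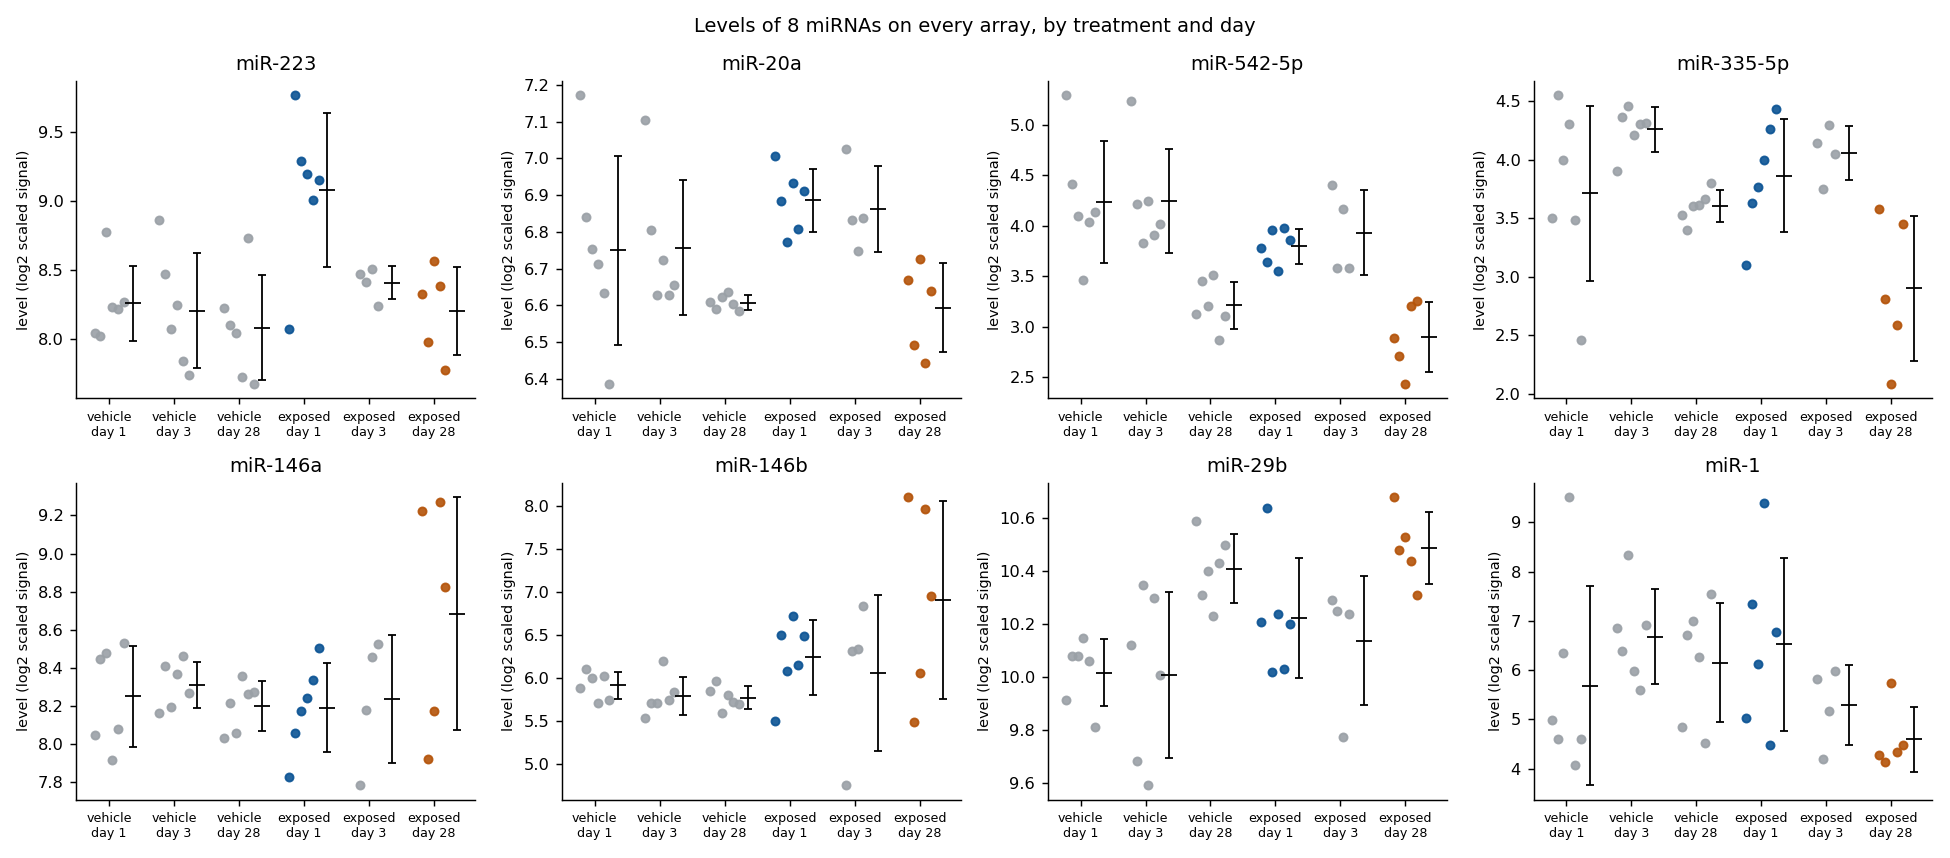
Level (vertical axis, log2 of the scaled signal) of 8 miRNAs on each of the 33 arrays, as points by treatment and day, with the group mean and SD as a bar at the right of each group. For miR-223, 5 of 6 exposed day 1 arrays stand above every exposed day 28 array, while miR-146a and miR-146b spread widely at day 28.

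The paralogs of the miR-17-92 cluster, which promote cell cycle entry and growth, were all on the lower side. Of 13 listed, 9 were tested, 9 were negative and 4 had an unadjusted p under 0.05, with a median of -0.24 (-0.11 against all tested). Over all 172 tested, 73.8% were negative and 14.5% were lower at an unadjusted p under 0.05, the shares against which this and the following lists stand. The same 9 in vehicle lungs held 6 negative values with a median of -0.13. miR-20a ranged from 6.77 to 7.01 at day 1 (median 6.90) and was 6.67, 6.49, 6.73, 6.44 and 6.64 at day 28, without overlap. Its difference was -0.29 ± 0.10 (SE; limma adjusted p = 0.149), a 1.22-fold lower level. miR-25 also separated the days, at 6.56 to 7.00 and 6.09 to 6.51 (-0.30 ± 0.12). miR-19a was 5.26 to 5.53 at day 1 and 4.98 to 5.30 at day 28 (-0.29 ± 0.09), with replicate 8 of day 28 reaching into the day 1 range.

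Within seeds the sizes varied. Of the 4 with the seed AAAGUGC, miR-20a and miR-20b differed by -0.29 and -0.21, and miR-93 and miR-106b by -0.12 and -0.07. The signs of miR-93 and miR-106b turned under other settings, to 0.01 for miR-93 with normexp correction and to 0.11 for miR-106b with quantile normalization. miR-19b differed by -0.16, and by 0.06 with quantile normalization. miR-25 and miR-92a, with the seed AUUGCAC, differed by -0.30 and -0.24. The 4 names from the chromosome 14 cluster that could be placed within 10000 bases of each other (miR-17*, miR-18a, miR-19a and miR-20a) were all negative, from -0.49 to -0.13. At day 28 miR-18a was above background on replicate 8 alone, and miR-17* on replicates 8 and 30 alone. The smallest difference of miR-18a among the alternative settings was -0.003. Of 14 genomic clusters with at least 2 tested hairpins, 12 were negative for every member, 1 was positive for every member (miR-500 and miR-362-3p) and 1 was mixed (let-7e and miR-125a-5p). Of all tested miRNAs 73.8% were negative, and in vehicle lungs, where 73.3% were negative, 4 of the 14 were negative for every member.

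The let-7 family, which restrains growth genes and is abundant in adult lung, was negative for 9 of 9 members, with a median of -0.20 and 1 unadjusted p under 0.05 (miR-98). Against the median of all tested this was -0.07, and vehicle lungs gave 9 of 9 negative with a median of -0.23. The miR-15/16 family gave 5 of 6 negative with a median of -0.21. Within it miR-15a separated the days at 9.69 to 10.19 and 9.50 to 9.68, a difference of -0.19 ± 0.15 that was -0.30 in vehicle lungs. All 3 red blood cell miRNAs were negative, at -0.41 for miR-144, -0.23 for miR-451 and -0.27 for miR-486, and 0 had an unadjusted p under 0.05. Their summed signal was 4760 to 9094 at day 1 and 2936 to 8803 at day 28.

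On the higher side, miR-146a had the smallest p. Its level was 7.83 to 8.50 at day 1 (median 8.21) and 9.23, 7.92, 8.17, 9.27 and 8.83 at day 28. Replicates 8, 23 and 30 of day 28 stood above all day 1 arrays, and replicates 12 and 20 lay within the day 1 range. The difference was 0.49 ± 0.18 (SE), a 1.41-fold higher level (limma adjusted p = 0.155), or 0.63 against all tested. In vehicle lungs it was -0.05. Within slides 2, 5 and 8 it was 1.17, -0.07 and 0.32.

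miR-146b, with the same seed, followed the same arrays. It was 5.50 to 6.73 at day 1 and 8.11, 5.49, 6.06, 7.97 and 6.96 at day 28, with replicates 8, 23 and 30 on top again. The difference was 0.67 ± 0.34 (SE; limma adjusted p = 0.323), 0.46 with slide as a fixed block. miR-21, which is induced in injured and fibrotic tissue, was 11.76 to 12.67 at day 1 and 13.01, 11.57, 12.28, 13.50 and 12.25 at day 28 (0.19 ± 0.23). miR-155, an activator of macrophage inflammation, was 2.80 to 3.94 at day 1 and 4.38, 1.92, 4.46, 4.55 and 3.72 at day 28 (0.19 ± 0.31). miR-155 was not above background on replicates 3 and 15 of day 1 and on replicate 12 of day 28. Replicate 12 was the lowest day 28 array for all 4. These 4 were the tested members of 12 listed inflammation miRNAs, all 4 positive and 1 at an unadjusted p under 0.05, with a median of 0.34 (0.48 against all tested). That median was -0.10 in vehicle lungs, at measured values. There miR-155 was above background on 0 of 6 arrays at day 1, and its day 28 mean was below the bound for day 1. In exposed lungs the list median was 0.67 without replicate 12 of day 28, and 0.18 without replicate 23.

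The miR-29 family, which represses collagens and other matrix genes, was positive for 3 of 3 members (median 0.10, or 0.23 against all tested). miR-29b was 10.02 to 10.64 at day 1 and 10.68, 10.48, 10.53, 10.44 and 10.31 at day 28. Replicate 7 was the 1 high array of day 1, and the other 5 lay below every day 28 array. The difference was 0.27 ± 0.13 (SE; limma adjusted p = 0.287). In vehicle lungs miR-29b was 0.39 higher at day 28, which passed the test (limma adjusted p = 0.0367), and the median of the family there was 0.32.

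The other higher miRNAs rested on few arrays or on small sizes. miR-10b was 4.34 to 4.82 at day 1, and at day 28 replicate 20 stood at 6.50 while the others lay between 4.58 and 4.93 (0.44 ± 0.22). miR-199a-5p, miR-342-3p, miR-31, miR-181b and miR-500 differed by 0.15 to 0.28. For miR-342-3p, a lymphocyte miRNA, the range was 5.58 to 5.86 at day 1 and 5.31 to 6.48 at day 28, so day 28 enclosed day 1. miR-125a-5p differed by 0.30 ± 0.23, and by 0.05 with slide as a fixed block, with replicate 3 of day 1 at 4.93 and all other arrays at 6.00 or above. miR-720, an entry later counted as a tRNA fragment, differed by 0.43 ± 0.37, and let-7b* by 0.36 ± 0.36. Of the 12 named higher miRNAs, 6 were higher on all 3 shared slides, in the same arrays by which they had been chosen, against 9.88% of all tested.

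**Figure D3:**
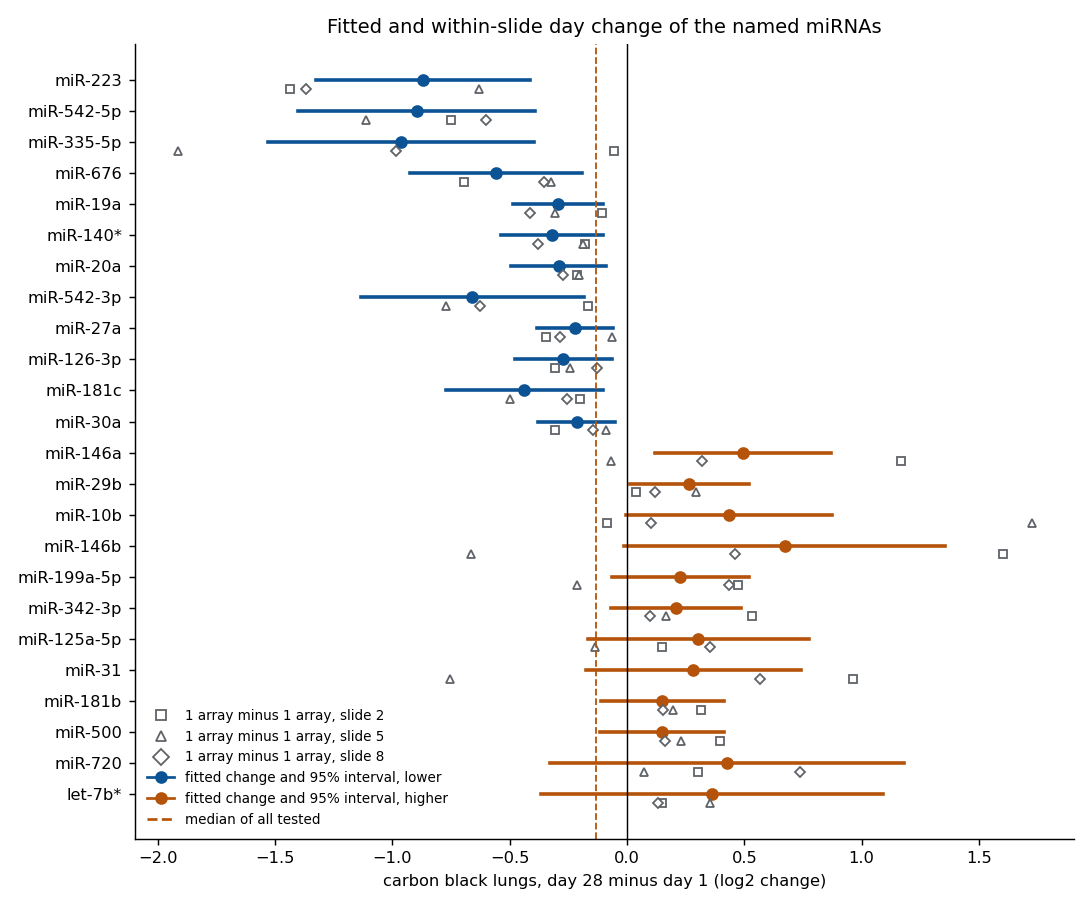
Difference between day 28 and day 1 in carbon black lungs (horizontal axis, log2) for the 12 named lower and 12 named higher miRNAs, as the fitted value with its 95% interval and as the single differences within slides 2, 5 and 8. The 3 slides lie on the negative side for each lower miRNA, in the same arrays by which these had been chosen. Those of miR-146b run from -0.66 to 1.60.

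Muscle miRNAs varied widely between the day 1 arrays. miR-1, the miRNA of heart and skeletal muscle, was 5.03, 7.34, 6.12, 9.39, 4.47 and 6.78 on the day 1 arrays (replicates 3, 7, 15, 19, 26 and 29). On the day 28 arrays it was 4.28, 4.14, 5.75, 4.33 and 4.48. The day 28 arrays other than replicate 20 lay at or below 4.48, and the day 1 arrays ran from 4.47 to 9.39, so the groups overlapped. The difference was -1.93 ± 0.79 (SE; limma adjusted p = 0.191), and -1.35 without replicate 19 of day 1. miR-133b was above background on 4 of 6 day 1 arrays and on 0 of 5 day 28 arrays, so only a bound is given: it was at least 2.11-fold lower at day 28 (limma adjusted p = 0.216). miR-133a, above background on 3 of 6 day 1 arrays and on 0 of 5 day 28 arrays, was at least 1.13-fold lower by the same rule (limma adjusted p = 0.278). Both bounds use the day 1 mean, which a high array raises. The highest day 1 level was 6.71 for miR-133a (median 3.45) and 7.59 for miR-133b (median 4.27). The day 1 median of miR-133a was below its day 28 bound of 3.46. Bounds without the highest array were not computed.

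Of 6 listed striated muscle miRNAs, miR-1, miR-133a and miR-133b were tested, and miR-1 alone was above background on arrays of both days. With miR-133a and miR-133b at their bounds the median of the 3 was -1.08. At the measured values, which for these 2 rest on day 28 signals not well above background, it was -1.77, and -1.16 without replicate 19 of day 1 or -0.43 with normexp correction. In vehicle lungs the measured median was 0.20. The summed signal of the 6 was 34.99 to 974 at day 1 (median 123) and 30.7 to 80.0 at day 28 (median 32.4). Among other cell type markers, the 4 tested fibroblast miRNAs split 2 and 2 (median -0.04), and the 8 epithelial miRNAs gave 6 negative and 2 positive (median -0.12, or 0.01 against all tested). 1 of the positive members, miR-203, was above background on 0 of 6 day 1 arrays. miR-375, of secretory epithelium, differed by -0.70 ± 0.34 and was above background on 5 of 6 and 1 of 5 arrays. miR-449a, of ciliated cells, differed by -0.89 ± 0.47 in exposed and by -1.03 in vehicle lungs.

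**Figure D4:**
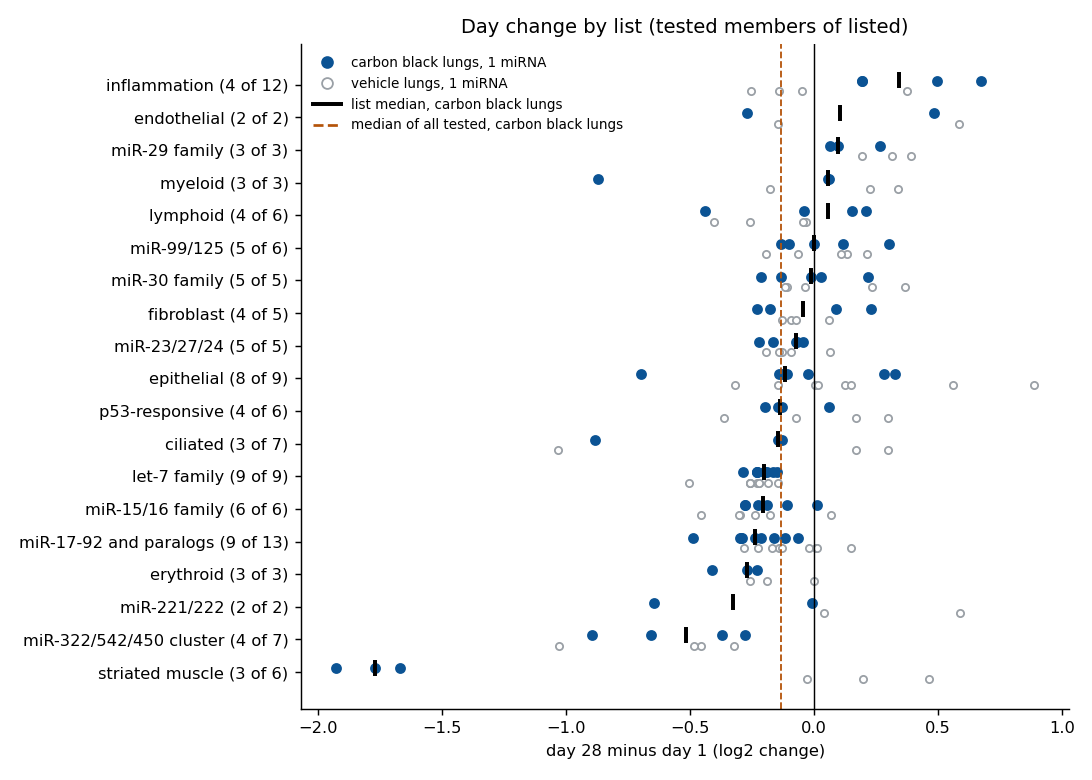
Difference between day 28 and day 1 (horizontal axis, log2) for the tested members of each list with at least 2 of them, in carbon black lungs (filled) and vehicle lungs (open), with the list median as a bar and the median of all 172 tested as a dashed line. All points are measured values, and the filled points of miR-133a and miR-133b (striated muscle) rest on day 28 signals not well above background. Vehicle day 1 signals were not well above background for miR-222, miR-155 (inflammation) and miR-203 (epithelial). The same holds for miR-203 on exposed day 1 signals. The inflammation list has its median at 0.34, and for let-7 and the cluster of miR-322 the filled and open points share a side.

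Vehicle lungs were compared over the same days. There limma called 12 miRNAs (6.98% of 172), 11 lower and 1 higher, and 126 of 172 were negative (73.3%) with a median of -0.17. Over the 172, 102 were lower at day 28 under both treatments, 21 higher under both, 25 lower in exposed lungs alone and 24 lower in vehicle lungs alone, so that 71.5% had the same sign. Across miRNAs the vehicle and exposed differences correlated at r = 0.111 (Pearson) and rho = 0.242 (Spearman), as a description over 172 miRNAs that share arrays, slides and scaling. Of the 12 called in vehicle lungs, 10 had the same sign in exposed lungs and 4 had an unadjusted p under 0.05 there: miR-140, miR-29b, miR-542-5p and miR-96. Over all 172 tested, 71.5% had the same sign and 15.7% had such a p in exposed lungs. miR-96, of the sensory and epithelial miR-183 cluster, differed by -0.34 in exposed and -0.41 in vehicle lungs (limma adjusted p = 0.0367 in vehicle). Its neighbour miR-183 differed by -0.48 and -0.41.

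The exposed minus the vehicle day change was tested directly. No miRNA passed (limma, 0 of 172, 0%; smallest adjusted p = 0.489), with 7 positive and 6 negative at an unadjusted p under 0.05. miR-223 had a difference of day changes of -0.69 ± 0.31 (SE; limma adjusted p = 0.572), and miR-335-5p one of -0.85, which turned to 0.87 with normexp correction. For miR-146a it was 0.54, and for miR-542-5p 0.13. The smallest p belonged to miR-877*, from within the gene Abcf1, which differed by 0.06 in exposed and -0.94 in vehicle lungs. miR-702, let-7b* and miR-207 had the same shape, at 0.14, 0.36 and 0.08 in exposed and -1.16, -0.97 and -0.72 in vehicle lungs. Their detection was partial. Of 6 vehicle arrays at day 1 and 6 at day 28, miR-702 was above background on 3 and 2, let-7b* on 4 and 5 and miR-207 on 3 and 5. Of 6 exposed arrays at day 1 and 5 at day 28, it was 4 and 4 for miR-702, 4 and 5 for let-7b* and 4 and 2 for miR-207. Without scaling, the difference of day changes turned to -0.28 for miR-877* and -0.48 for miR-207. miR-375 had -0.70 in exposed and 0.56 in vehicle lungs, a difference of -1.26 that turned to 0.74 with normexp correction. miR-222, which promotes proliferation, was above background on 0 of 6 vehicle arrays at day 1 and on 5 of 6 at day 28, and its vehicle mean of day 28 was below the bound for day 1, so no vehicle change is given. In exposed lungs it differed by -0.65, above background on 4 of 6 and 2 of 5 arrays.

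This test depended strongly on background and scaling. With normexp correction 97 miRNAs passed, all positive, and the median over all tested was 0.64. Without scaling between arrays 119 passed, all negative, with a median of -1.25. Before scaling, the median 75th percentile of the signal was 365 units in vehicle lungs at day 1 and 985 at day 28, against 666 and 481 in exposed lungs, and the part of brightness in these counts was not tested.

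**Figure D5:**
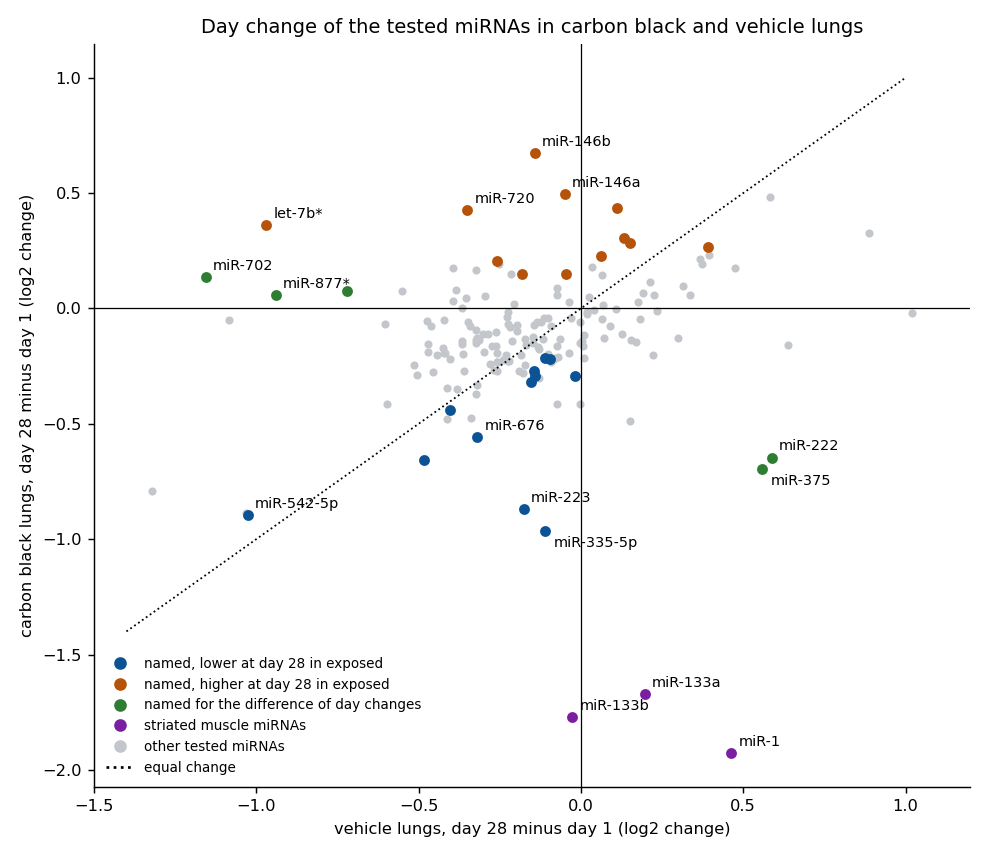
Difference between day 28 and day 1 in carbon black lungs (vertical axis, log2) against the same in vehicle lungs (horizontal axis, log2) for 172 miRNAs, with named miRNAs coloured and the dotted line marking equal change. The points of miR-133a and miR-133b, and of miR-222 on the horizontal axis, rest on a group not well above background. The same holds on the horizontal axis for miR-155, miR-17*, miR-203, miR-340-3p, miR-467b*, miR-669h-3p and miR-744. On the vertical axis it also holds for miR-203 and miR-669h-3p. miR-542-5p lies near the line at -0.90 and -1.03, while miR-223 and miR-335-5p lie below it and miR-146a and miR-146b above it.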

How the data were processed

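Small RNA of lung, labelled with Cy3, was read on single-colour Agilent arrays of mouse miRNAs, per the labels. The deposited scanner files hold spot intensity from Feature Extraction 10.7.3.1 and a processed signal from which background was already subtracted, per the file headers. A table deposited by the authors holds log2 values, 1 per miRNA and array. Its correlation with the log2 of the spots' median signal was 0.985 to 0.993, its column medians were 5.41 to 5.43, and its centring and scaling stay unknown.

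Control spots and spots with outlier flags (2.30%) were left out, and 0 were saturated. Processed signals were scaled to a common 75th percentile over the 156 probes above background on all 33 arrays, floored at 1 and put on a log2 scale. A miRNA's level is that of its brightest probe, and 16 of 77 miRNAs with several bright probes had probes that differed in sign. A miRNA was above background on an array when over 50% of the unflagged spots of any of its probes were well above it. A bound compares the brighter group's mean with, on each array of the dim group, either the lowest signal well above background or the probe's own, whichever is higher.

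All 33 arrays entered a single limma 3.58.1 fit of 6 group means (lmFit, eBayes with trend, R 4.3.3, data.table version 1.17.8), two-sided, with Benjamini-Hochberg adjustment over all tested miRNAs at 0.05. Named miRNAs are up to 12 in each direction past that threshold, filled up by the smallest unadjusted p, the 8 with the smallest adjusted p for the difference of day changes, and list members. Members, lists and rules were chosen with earlier results of these data known. Where nothing ties arrays to separate animals, p-values measure only the spread between samples. Blocks for slide and scan day, other corrections, scalings and filters, and each array left out were the alternatives. Normexp used the median spot signal, since the mean was not among the columns used here.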

Additional observations from a re-analysis of the deposited data

Results flagged for a closer look

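Among 96 groups of 48 miRNAs, 11 held an array far from the others of its group by Dixon's criterion, and chance flags about 1 in 20 groups. Of these, 6 came from replicate 3 of day 1, the only array of the comparison on slide 1. It was high for miR-106b (7.68, next 7.31), miR-25 (7.00, next 6.62) and miR-676 (3.80, next 3.49). It was low for miR-125a-5p (4.93, next 6.00), miR-142-3p (9.10, next 10.0) and miR-155 (2.80, next 3.51). Its miR-155 signal was not above background.

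The other day 1 arrays were replicate 7, high for miR-29b (10.64, next 10.24), and replicate 15, low for miR-18a (2.90, next 3.45). The miR-18a signal of replicate 15 was not above background. At day 28, replicate 20 was high for miR-1 (5.75, next 4.48) and miR-10b (6.50, next 4.93), and replicate 12 was low for miR-207 (2.61, next 3.57).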

How the results depend on the processing

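With carbon black, the count of called miRNAs was 0 in the reported fit. It was 1 with the total gene signal, 1 among miRNAs above background on all 33 arrays, 9 with slide and 9 with scan day as a random block, 5 with scan day as a fixed block and 4 without slide 1, a setting chosen after seeing the data like both scan day blocks. Leaving out 1 array gave 0 to 2, the 2 without replicate 3 of day 1. For the difference of day changes the count of 0 became 97 with normexp, 119 without scaling, 1 with the percentile over all probes and 1 with no filter. No paired analysis was possible because the replicate numbers run through the series and pair nothing; slides, 3 of which held 1 array of each day, entered as blocks.

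List medians, at measured values, moved with normexp for the endothelial list (-0.072), striated muscle (-0.43), the miR-17-92 paralogs (-0.058) and the miR-322 cluster (-0.071). The miR-322 cluster was at -1.03 with the total gene signal. With the authors' deposited table the medians were -0.35 for striated muscle, -0.063 for the miR-17-92 paralogs, -0.056 for miR-15/16, -0.10 for the miR-322 cluster and 0.069 for miR-23/27/24. Striated muscle was at -0.84 with no filter, and the endothelial list at -0.27 among miRNAs above background on all arrays. Without replicate 3 of day 1, and equally without slide 1, the endothelial list was at -0.11 and the miR-30 family at -0.22.

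Signs turned for these values. miR-93 was 0.012 with normexp, and the differences of day changes were 0.84 for miR-222 (not above background in vehicle lungs at day 1), 0.74 for miR-375 and 0.87 for miR-335-5p. miR-106b was 0.029 with the total gene signal, where the difference for miR-207 was -0.30, and 0.11 with quantile normalization, where miR-19b was 0.056. Without scaling, miR-142-3p was -0.028, miR-142-5p -0.030, miR-207 -0.011 and miR-877* -0.030, and the differences of day changes were -0.28 for miR-877*, -0.81 for miR-342-3p and -0.48 for miR-207. With slide as a fixed block, miR-142-3p was -0.15, miR-142-5p -0.010 and miR-877* -0.0024. miR-142-3p was -0.066 with slide as a random block, -0.12 with scan day as a fixed and -0.064 as a random block, and miR-142-5p -0.012 with scan day fixed. Without slide 1, miR-106b was 0.0026, miR-142-3p -0.13 and miR-142-5p -0.044, as without replicate 3 of day 1. With 1 array left out in turn, miR-142-3p ran from -0.13 to 0.23, miR-142-5p from -0.066 to 0.21, miR-207 from -0.00912 to 0.29, miR-877* from -0.00187 to 0.11, miR-21 from -0.053 to 0.43 and miR-106b from -0.096 to 0.0026. The endothelial list ran from -0.11 to 0.20 and the miR-30 family from -0.22 to 0.063. Array brightness ran from -0.30 to 0.023 log2, and the difference in miRNAs above background from -16.33 to 0.417. The cause of these shifts was not tested.

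Normexp ran on the median spot signal in place of the mean. Signal over background limits miR-542-5p, miR-542-3p, miR-335-5p and miR-676, which were near background at day 28.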
